A study of Mus musculus with 6 samples.

Results

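Cytochrome P450 genes outside core steroid synthesis were examined in adrenal glands of male mice aged 12 weeks from the hypertensive strain BPH and the hypotensive strain BPL, with 3 arrays per strain. Both lines were bred by selection on blood pressure, and the question here is how far their glands differ in P450 transcripts. Members were all probe sets whose only gene symbol is Cyp followed by a number and a letter, without Cyp11a1, Cyp21a1 and Cyp2f2. This gave 43 probe sets for 36 genes, out of 8251 genes with a probe set of 1 symbol. The 7 Cyp probe sets with several symbols were not members. The labels name no treatment and no engineered allele, and call neither line a control for the other. Whether each array carried RNA from a single animal is not stated, so a p-value reflects only how these 6 samples scatter, part of which may be technical. Signals are listed in the order of replicates 1, 2 and 3.

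Cytochrome P450 enzymes hold a heme group and use molecular oxygen to hydroxylate or epoxidise their substrates. Those in the endoplasmic reticulum take electrons from P450 oxidoreductase, at times with cytochrome b5, and those in mitochondria take them from ferredoxin. In the adrenal cortex a few P450 enzymes build the steroid hormones, whereas the families described here mainly oxidise drugs, fatty acids, bile acid precursors, vitamin D and retinoids, and many of them are best known from liver.

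Only 11 of the 43 probe sets, each for a different gene, had a mean above the filter that removed the 40% of probe sets with the lowest means, a level that corresponds to a signal of about 617 in the MAS5 units of the table. These are called bright here, and the other 32 are called near background. Over all probe sets that are not controls 60% were bright, against 25.6% of the P450 members. By role, 6 of 26 probe sets for foreign compound oxidation (families 1, 2 and 3) were bright, 4 of 7 for fatty acid and eicosanoid oxidation (family 4), 1 of 4 for bile acid and sterol oxidation, 0 of 4 for vitamin D and retinoid metabolism and 0 of 2 for hormone synthesis. A bright or near-background status describes a probe set on this array. It does not compare transcript amounts between genes, since probe sets bind with different strength.

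One member passed the test between strains. Cyp2e1, which oxidises ethanol, acetone and other small molecules, was called higher in BPH, and no member was called lower. That is 1 of 11 bright members (9.09%), against 4.11% of all 7453 tested probe sets, of which 3.18% were higher and 0.926% lower. At an unadjusted p under 0.05 there were 4 of 11 members, against 20.6% of all tested probe sets. The median log2 difference of the 11 was 0.13, against 0.08 for all tested probe sets, with 7 positive and 4 negative.

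The sequences upstream of the start site are shown for Cyp2e1, the called member, and for the neighbouring paralogues Cyp2c39 and Cyp2c38. The log2 strain differences of these paralogues were 1.01 and 0.13. Neither was called, and they were not tested against each other. Each run is the 250 bases before the start listed by RefSeq, 5′ to 3′ on the gene's strand in build GRCm38.p6. Capitals mark matches, on either strand, to the TATA box (letters TATAAA), the CCAAT box, the core bound by the aryl hydrocarbon receptor (GCGTG) and the core of the HNF4A motif (CAAAGTC).
Cyp2e1, chr7:140763569-140763818, plus strand: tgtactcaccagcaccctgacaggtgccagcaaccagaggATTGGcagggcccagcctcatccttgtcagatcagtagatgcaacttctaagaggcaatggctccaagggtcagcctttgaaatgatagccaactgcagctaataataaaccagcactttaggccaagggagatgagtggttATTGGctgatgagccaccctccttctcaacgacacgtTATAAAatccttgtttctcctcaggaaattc
Cyp2c39, chr19:39510572-39510821, plus strand: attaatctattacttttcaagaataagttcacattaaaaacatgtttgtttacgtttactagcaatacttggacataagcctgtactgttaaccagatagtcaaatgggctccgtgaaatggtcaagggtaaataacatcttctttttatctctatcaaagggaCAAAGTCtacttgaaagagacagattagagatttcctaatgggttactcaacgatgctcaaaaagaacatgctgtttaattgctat
Cyp2c38, chr19:39463076-39463325, minus strand: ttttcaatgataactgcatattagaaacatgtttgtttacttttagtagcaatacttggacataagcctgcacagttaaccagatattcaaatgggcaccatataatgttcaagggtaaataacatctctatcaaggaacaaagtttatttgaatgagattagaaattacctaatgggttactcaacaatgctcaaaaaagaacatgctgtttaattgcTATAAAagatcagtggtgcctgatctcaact

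The Cyp2e1 sequence holds a TATA box that begins 31 bases before the start and a pair of CCAAT boxes on the opposite strand, at 68 and 210 bases. The Cyp2c38 TATA box also begins 31 bases before its start. That of Cyp2c39 begins 3 bases before the listed start and runs past the printed end, and RefSeq lists 2 start windows for this gene, of which the one with a TATA box is shown. In end-to-end alignments of these 250 bases, Cyp2c39 and Cyp2c38 were identical at 71.0% of 279 columns, and Cyp2e1 and Cyp2c39 at 50.5% of 295. Columns with a gap are counted, and the level for unrelated sequences was not computed. The listed starts of Cyp2c39 and Cyp2c38 lie at different distances from their TATA boxes. This offset adds gap columns, and positions before the start are not directly comparable between these 2 genes. The HNF4A core lies 86 bases before the start of Cyp2c39, and these letters are not in the windows of Cyp2c38 or Cyp2e1.

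The table of promoter windows, which run from 250 bases before to 50 bases after a start, held 29 of the 36 member genes in 31 windows. TATAAA was in 16 of those 31 (51.6%), against 13.6% of all 32851 windows. CAAAGTC was in 9 (29.0% against 4.44%), CCAAT in 12 (38.7% against 37.4%) and GCGTG in 4 (12.9% against 32.4%). Paralogues in 1 gene cluster share sequence, so these windows are not independent, and a match of letters is a description and not a binding site. Cyp17a1, Cyp24a1, Cyp4a10, Cyp4a12b, Cyp4a14, Cyp7a1 and Cyp7b1 are named only.

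Tissue markers were compared first, because several P450 genes are far more active in liver than in adrenal gland. All 7 marker genes of the adrenal cortex and all 6 of the medulla had a bright probe set, and Pearson correlations between arrays, across tested probe sets, ran from 0.869 to 0.969. All 8 liver marker genes with a probe set of 1 symbol had their highest BPL signal in replicate 2 and their highest BPH signal in replicate 3. Albumin (Alb) gave 323, 19442 and 1208 in BPL and 711, 451 and 4732 in BPH. The summed signal of the 8 genes, 1 probe set each, was 40670 in BPL replicate 2 and 12752 in BPH replicate 3, and from 3133 to 4617 on the other 4 arrays. The summed signal of 6 skeletal muscle genes was 96706, 226906 and 19235 on the BPL arrays and from 2021 to 2448 in BPH. In whole glands, fewer cells of a type and less RNA per cell cannot be told apart.

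Cyp2e1 (probe set 93996_at) gave signals of 21952, 27160 and 34429 on the BPL arrays and 102497, 72383 and 73369 on the BPH arrays. Every BPH array lay above every BPL array. The BPL mean was 27847 ± 6267 and the BPH mean 82750 ± 17109 (SD, n = 3). The log2 difference was 1.57 ± 0.22 (SE; adjusted p = 0.0067 by limma, Benjamini-Hochberg), with a 95% interval from 1.07 to 2.07. On the log2 scale this is a 2.97-fold difference.

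Cyp2e1 did not have the order of the liver markers: in BPL the array with most albumin was between the other 2, and in BPH replicate 3 was close to replicate 2. It was highest in BPL replicate 3 and in BPH replicate 1. Within BPL, replicate 3 was also highest for 2 of 5 fat, 5 of 7 cortex and 6 of 6 medulla marker genes. Within BPH, replicate 1 was highest for 4, 4 and 1 of these genes. Without BPL replicate 2 and BPH replicate 3 together, an alternative chosen after the data were seen, the Cyp2e1 difference was 1.64 (limma adjusted p = 0.040). Without BPL replicates 1 and 2 together, which had the most skeletal muscle signal, it was 1.24 and was not called (limma adjusted p = 0.11). That leaves 1 BPL array, so the test there rests on the spread of the BPH arrays and assumes that BPL varies alike.

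Fat also expresses Cyp2e1. Of 7 fat marker probe sets 5 had negative differences, among them both of Ucp1, the uncoupling protein of brown fat (-0.84 and -0.68), and Fabp4 (-0.39), whose BPH arrays all lay below the BPL arrays, and 0 were called by limma, with 3 at an unadjusted p under 0.05. The median over the 6 tested was -0.51. Of the 2 positive ones, the adipocyte hormone gene Adipoq had signals of 59160, 56170 and 61269 in BPL and 74162, 55999 and 58003 in BPH (log2 difference 0.08 ± 0.16, limma adjusted p = 0.81). The summed signal of 5 fat marker genes was from 164482 to 182367 in BPL and from 117695 to 175853 in BPH. The summed signal of 8 kidney marker genes was from 2733 to 4769 in BPL and from 2905 to 6410 in BPH. Kap, the kidney androgen-regulated gene, gave 3564 of the highest sum, on BPH replicate 2. Without the filter 2 of the 8 kidney probe sets had positive differences (Kap and Slc34a1) and 6 had negative ones, none of them without overlap. For the adrenal medulla, 8 tested probe sets for 6 genes had a median log2 difference of 0.69, against 0.08 for all tested probe sets, and 2 were called higher. They were Th, tyrosine hydroxylase, which starts catecholamine synthesis (1.28, limma adjusted p = 0.023), and Scg2, a secretory granule protein (0.84, limma adjusted p = 0.048). The summed medulla signal was from 144389 to 226085 in BPL and from 229150 to 298399 in BPH. For the 7 adrenal cortex genes the median was 0.18 over 11 tested probe sets, of which 1, for Nr5a1, was called higher. The medians were 0.44 for fibroblasts and smooth muscle, 0.40 for macrophages and 0.09 for endothelium, over 8, 4 and 6 tested probe sets. Of these only Tagln was called, higher by 0.93 (limma adjusted p = 0.035). For liver and skeletal muscle the medians were -0.53 and -4.13. The part of liver, muscle, medulla, fat or kidney RNA, or of RNA from any other cell type, in the Cyp2e1 difference was not tested.

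**Figure D1:**
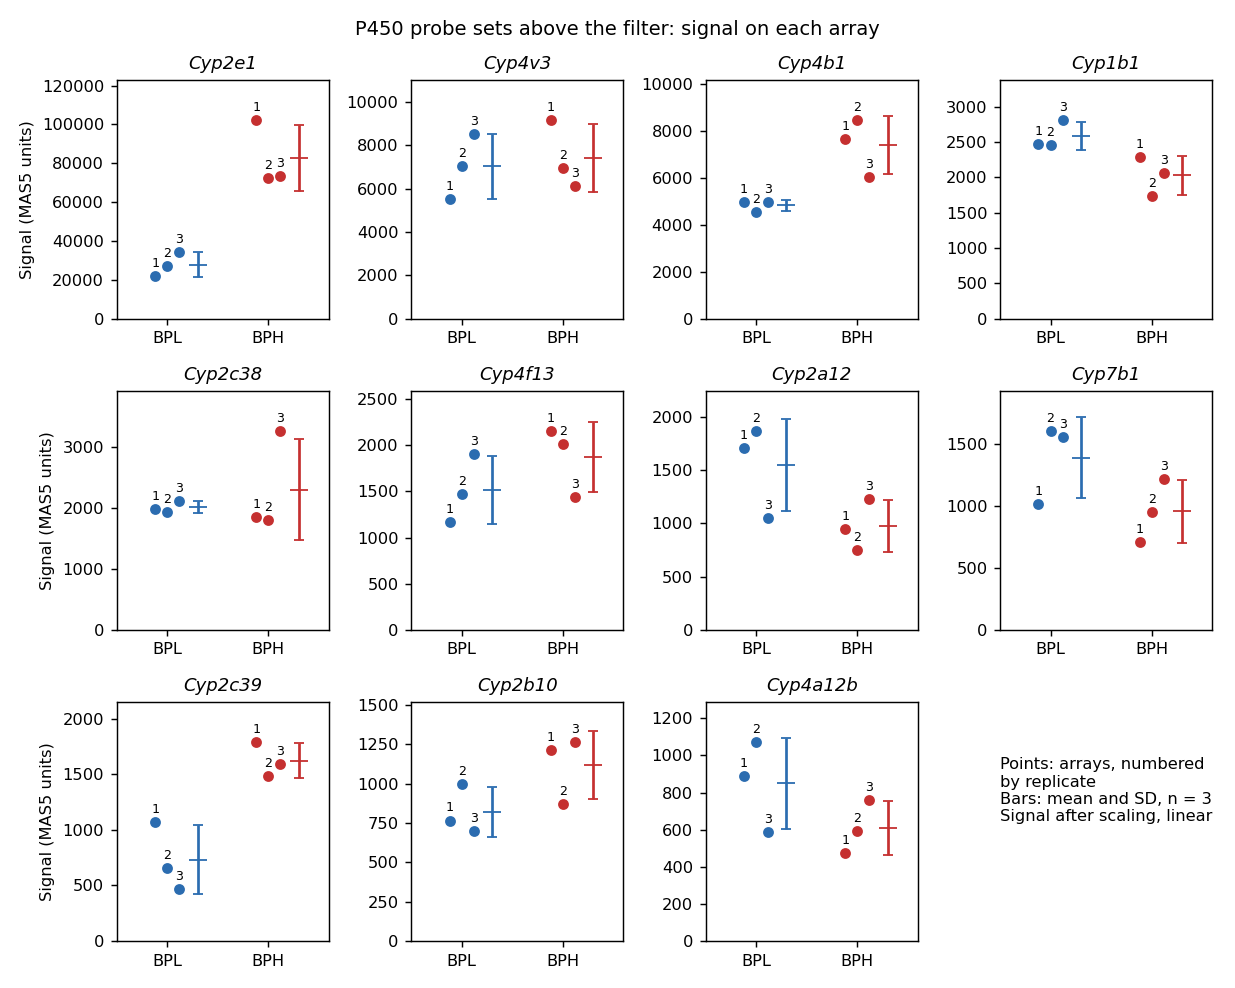
Signal of the 11 bright P450 probe sets on each array, in MAS5 units after scaling, on a linear axis from 0. Points are arrays numbered by replicate, and bars are mean and SD over 3 arrays. The BPH arrays lie above the BPL arrays for Cyp2e1, Cyp4b1 and Cyp2c39 and below them for Cyp1b1, and the strains overlap for the other 7.

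Of the other bright members, Cyp2c39, which acts on retinoic acid and arachidonic acid, came closest to the threshold. Its signals were 1072, 655 and 469 in BPL and 1793, 1486 and 1590 in BPH. The strains did not overlap, and the log2 difference was 1.01 ± 0.24 (SE, n = 3, limma adjusted p = 0.052). It was called in 5 of 16 alternative settings, of which 1 left a single BPL array and so no spread in BPL, among them without BPL replicate 1 (1.26, limma adjusted p = 0.015). Over these settings its difference ran from 0.67 to 1.44.

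Its neighbour Cyp2c38, an arachidonic acid epoxygenase, had signals of 1981, 1922 and 2112 in BPL and of 1841, 1792 and 3262 in BPH. Only BPH replicate 3 stood above the BPL arrays. The log2 difference was 0.13 ± 0.23 (limma adjusted p = 0.77), and without BPH replicate 3 it was -0.13. The suffix of its name (102084_f_at) marks a probe set that can bind several members of a sequence family. The difference between the Cyp2c39 and Cyp2c38 changes was not tested.

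The remaining bright members of families 1 and 2 did not pass. Cyp1b1, which oxidises oestrogens and polycyclic hydrocarbons and is known from steroid-making tissues, had signals of 2474, 2458 and 2817 in BPL and of 2288, 1736 and 2066 in BPH. All 3 BPH arrays lay below all BPL arrays, and the log2 difference was -0.32 ± 0.16 (limma adjusted p = 0.29). Cyp2a12, a steroid hydroxylase of liver, had signals of 1711, 1869.5 and 1054 in BPL and 949, 747 and 1229 in BPH, with overlap (log2 difference -0.56 ± 0.24, limma adjusted p = 0.23). Cyp2b10, the phenobarbital-inducible P450, had signals of 765, 996 and 696 in BPL and 1214, 868 and 1265 in BPH, a log2 difference of 0.36 ± 0.19 (limma adjusted p = 0.31). Its strains overlapped as well.

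In family 4, which mainly hydroxylates the ends of fatty acid chains, 0 of 4 bright members were called by limma and 1 had an unadjusted p under 0.05. That was Cyp4b1, which also oxidises foreign compounds in lung and kidney, with signals of 4958, 4548 and 4948 in BPL and 7634, 8474 and 6046 in BPH. Its strains did not overlap, and the log2 difference was 0.58 ± 0.17 (limma adjusted p = 0.11). Cyp4v3, a fatty acid hydroxylase, had signals of 5520, 7035 and 8517 in BPL and 9183, 6932 and 6121 in BPH. These overlap almost wholly, and the log2 difference of 0.08 ± 0.22 (limma adjusted p = 0.86) was -0.037 with the authors' scaling and -0.082 after quantile normalization.

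Cyp4f13 had signals of 1173, 1468 and 1903 in BPL and 2159, 2014 and 1444 in BPH, a log2 difference of 0.28 ± 0.21 (limma adjusted p = 0.49). Cyp4a12b, of the subfamily that makes 20-hydroxyeicosatetraenoic acid, had signals of 889, 1074 and 587 in BPL and 476, 590 and 762 in BPH, a log2 difference of -0.36 ± 0.22 (limma adjusted p = 0.38). In both the strains overlapped.

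The only bright member for bile acids and sterols was a probe set of Cyp7b1, the oxysterol 7-alpha-hydroxylase. It had signals of 1013, 1609 and 1554 in BPL and 708, 950 and 1214 in BPH. BPH replicates 1 and 2 were below all BPL arrays and replicate 3 was not, and the log2 difference was -0.46 ± 0.23 (limma adjusted p = 0.29). Its other probe set was near background, from 359 to 725.

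**Figure D2:**
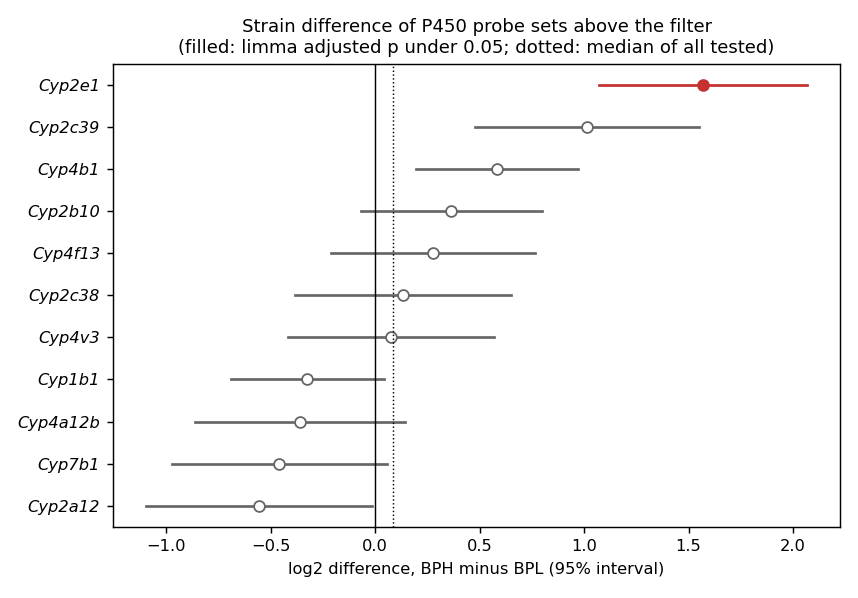
Strain difference of the 11 bright P450 probe sets on the log2 scale, BPH minus BPL, with 95% intervals from the limma model, over 3 arrays per strain. Only Cyp2e1 (filled, 1.57) passed an adjusted p of 0.05, and the dotted line is the median of all tested probe sets, 0.08.

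Groups that do not overlap were found for 3 bright members higher in BPH (Cyp2e1, Cyp4b1 and Cyp2c39) and 1 lower (Cyp1b1). Over all tested probe sets 19.7% were higher without overlap and 7.97% lower. Relative to the level that separates bright from near background, the 5 bright members just above it were Cyp4a12b, Cyp2b10, Cyp2c39, Cyp7b1 and Cyp2a12, and the 5 probe sets just below it were those of Cyp3a13 (from 321 to 955 over the 6 arrays), Cyp7b1, Cyp2c29 (from 86.1 to 917), Cyp3a11 and Cyp1a1 (from 177 to 875).

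The 32 near-background probe sets stand for 25 genes that have no bright probe set and for second probe sets of Cyp1b1, Cyp4f13 and Cyp7b1. Near background means close to the noise of the array, so absence of the transcript is not shown. Without the filter, 24 of the 32 had negative differences (75.0%), against 61.5% of all 4969 near-background probe sets, with medians of -0.15 and -0.08. An unadjusted p under 0.05 was found for 2 of the 32, against 9.26% of all near-background probe sets, and neither passed adjustment in that fit. Groups without overlap were higher in BPH for 1 and lower for 4, against 3.96% and 7.81%.

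The 2 probe sets with an unadjusted p under 0.05 both belong to Cyp24a1, which inactivates the hormone form of vitamin D. Probe set 93435_at had signals of 366, 145 and 316 in BPL and 26.6, 44.3 and 17.7 in BPH. Probe set 162070_r_at had 137, 219 and 67.6 in BPL and 360, 369 and 328 in BPH. The strains did not overlap in either, but the directions were opposite, with log2 differences of -1.01 ± 0.22 and 0.71 ± 0.20 in the limma model without the filter (adjusted p = 0.087 and 0.17), so these arrays give no direction for the gene. The other vitamin genes were Cyp27b1, which makes the active hormone, at 463, 249 and 306 in BPL and 233, 204 and 205 in BPH, and the retinoic acid hydroxylase Cyp26a1, from 75.3 to 341 over the 6 arrays.

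Cyp17a1, the 17-alpha-hydroxylase that mice do not use in the adult adrenal cortex, had 2 probe sets. One lay between 180 and 324 and the other between 49.9 and 95.8 over the 6 arrays, with overlapping strains. By contrast with these near-background signals, Cyp11a1 and Cyp21a1, the core enzymes left out of the members, were bright. Their log2 differences were 0.17 ± 0.16 and 0.18 ± 0.18 (limma adjusted p = 0.57 and 0.60). Among bile acid genes, Cyp7a1, the rate-limiting enzyme of bile acid synthesis, lay between 84.0 and 631, and Cyp8b1, which directs synthesis to cholic acid, between 202 and 729.

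Among near-background genes of foreign compound oxidation, Cyp2s1, a P450 of epithelia, gave 318, 216 and 200 in BPL and 628, 431 and 228 in BPH, and only BPH replicate 3 fell among the BPL arrays. Cyp2b13 (192, 156 and 118 in BPL and 112, 72.1 and 117 in BPH) and Cyp3a16 (180, 65.2 and 82.9 in BPL and 38.7, 59.4 and 18.2 in BPH) had all BPH arrays below all BPL arrays. The signals of Cyp2b13 and Cyp3a16 lie under the pseudocount of 203, where differences are compressed most. Cyp2b9 lay between 66.3 and 140 over the 6 arrays, Cyp2b19 between 218 and 459, Cyp2d9 between 111 and 716, Cyp2d26 between 107 and 295 and Cyp2c70 between 208 and 816, with overlapping strains in each. Cyp2j5 and Cyp2j6, of the family of arachidonic acid epoxygenases, did not exceed 41.5 and 192. Both Cyp1a1 probe sets, for the classical target of the aryl hydrocarbon receptor, were near background with overlapping strains, and so was Cyp1a2 (from 155 to 677).

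In family 4, the near-background probe set of Cyp4f13 gave 481, 261 and 719 in BPL and 319, 232 and 218 in BPH, whereas the bright one had a positive difference, so the pair gives no common direction. Cyp4a10 and Cyp4a14, fatty acid hydroxylases that are targets of the receptor PPAR-alpha in liver, lay between 93.1 and 391 and between 82.9 and 658 over the 6 arrays. The strains overlapped in all 3.

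**Figure D3:**
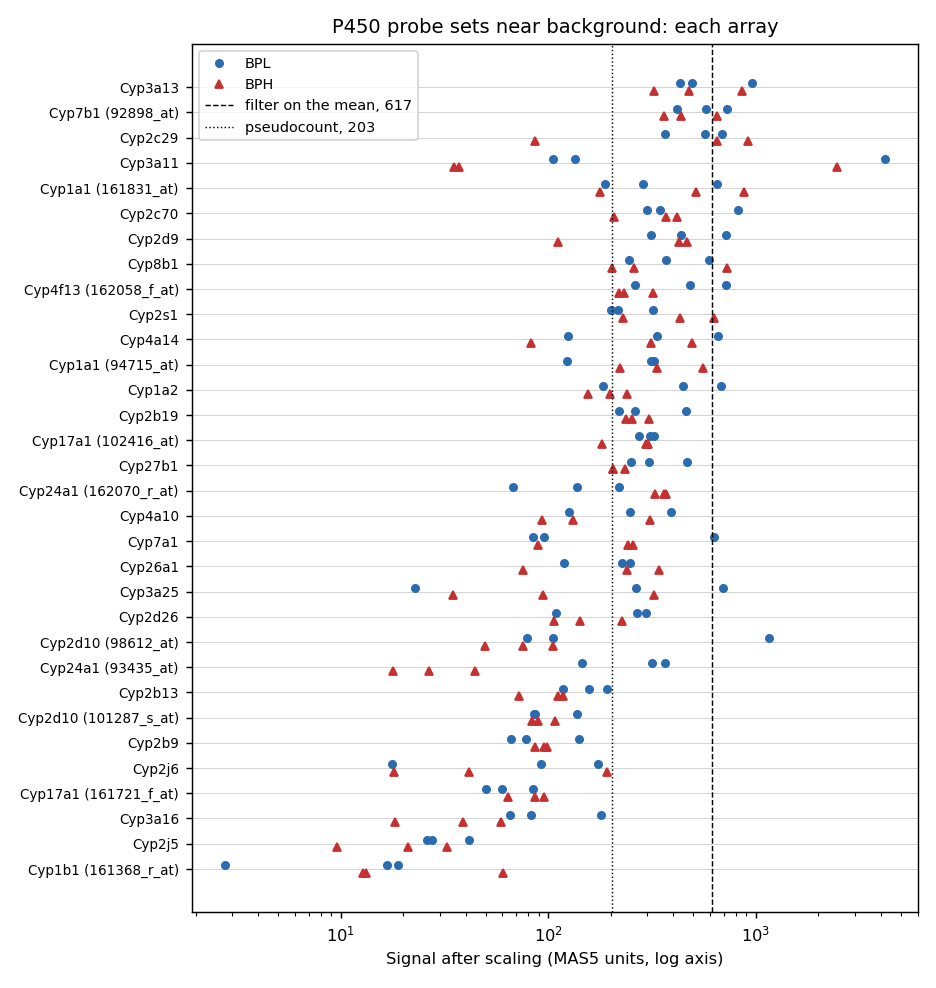
Signal of the 32 near-background P450 probe sets on each array, in MAS5 units after scaling, on a log axis. Circles are BPL arrays, triangles are BPH arrays, and dashed and dotted lines mark the filter level (617, applied to the mean of log2 values) and the pseudocount (203). Most points lie under 617, and Cyp3a11 and Cyp2d10 have single arrays far to the right of their others.

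Some P450 genes known from liver varied widely within a strain. Cyp3a11, a major drug-oxidising P450 of mouse liver, gave 105, 4202 and 134 in BPL and 34.9, 37.0 and 2444 in BPH. BPL replicate 2 and BPH replicate 3 stood apart, as they did for albumin, and the highest array was 39.9 times the lowest in BPL and 70.0 times in BPH. Cyp3a25, of the same family, had 265, 690 and 22.7 in BPL and 34.8, 94.5 and 321 in BPH. Probe set 98612_at of Cyp2d10 had 105, 1150 and 79.1 in BPL and 75.4, 49.5 and 105 in BPH, so that BPL replicate 2 alone stood apart.

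Of the 43 member probe sets, 11 (25.6%) had both their highest BPL signal in replicate 2 and their highest BPH signal in replicate 3, against 6.78% of all probe sets. They were 4 of the 11 bright ones (Cyp2a12, Cyp7b1, Cyp2b10 and Cyp4a12b), against 5.35% of tested probe sets. The other 7 were of the 32 near background (Cyp7b1, Cyp2c29, Cyp3a11, Cyp2c70, Cyp3a25, Cyp2d10 and Cyp1b1), against 8.92% of all near-background probe sets. That of Cyp1b1 lay only between 2.76 and 60.6. This order was chosen after the values were seen. Cyp2e1, Cyp2c39 and Cyp4b1 did not have it. The part of liver RNA in the signals of the 11 was not tested. Without those 2 arrays the differences of Cyp2a12, Cyp7b1, Cyp2b10 and Cyp4a12b were -0.57, -0.51, 0.40 and -0.34, and none was called.

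**Figure D4:**
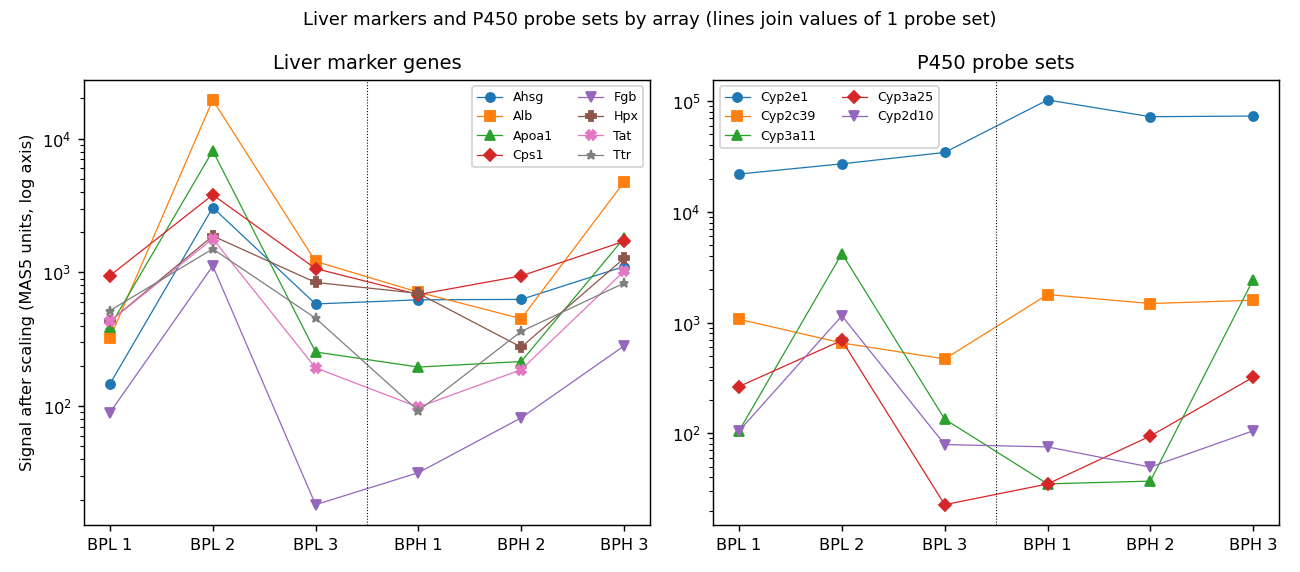
Signals on the 6 arrays, on log axes in MAS5 units after scaling, of 8 liver marker genes (left) and 5 P450 probe sets (right, with 98612_at for Cyp2d10). Each line joins the values of 1 probe set. All 8 liver genes and Cyp3a11 and Cyp3a25 peak in BPL replicate 2 and again in BPH replicate 3 within their strain. The strains do not overlap for Cyp2e1, and the part of liver RNA in its signal was not tested.

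Many members lie in clusters of neighbouring genes, in the order of the GRCm38.p6 gene table. The cluster of Cyp2s1, Cyp2b10, Cyp2b13, Cyp2b9, Cyp2b19 and Cyp2a12 had 2 genes with a bright probe set, Cyp2b10 with a positive and Cyp2a12 with a negative difference. The cluster of Cyp2c29, Cyp2c39, Cyp2c38 and Cyp2c70 also had 2, and that of Cyp4a12b, Cyp4a14, Cyp4a10 and Cyp4b1 had 2. The clusters of Cyp2d10, Cyp2d9 and Cyp2d26, of Cyp3a16, Cyp3a11 and Cyp3a25, of Cyp2j6 and Cyp2j5, and of Cyp1a2 and Cyp1a1 had 0 bright members. Probe sets with a suffix of f, r or s, which can bind related transcripts or were built under relaxed rules, made up 10 of the 43 and 3 of the 11 bright ones (Cyp4b1, Cyp2c38 and Cyp7b1), so these signals can mix paralogues.

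Genes that serve or accompany P450 enzymes were called at a share near that of all genes. Of 54 tested probe sets for 43 such partner genes, 2 were called higher and 1 lower (5.56%), with a median log2 difference of -0.01, against 4.11% called and a median of 0.08 over all tested probe sets. Among 9 electron donor probe sets 0 were called by limma and 1 had an unadjusted p under 0.05. Fdx1, the ferredoxin that supplies mitochondrial P450 enzymes, had signals of 116348, 142688 and 145384 in BPL and 161138, 158363 and 134836 in BPH (log2 difference 0.17 ± 0.16, limma adjusted p = 0.58). P450 oxidoreductase (Por) and ferredoxin reductase (Fdxr) lacked a probe set of 1 symbol and were not analysed here.

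Among 13 probe sets for heme synthesis and breakdown 0 were called by limma and 1 had an unadjusted p under 0.05. Alas1, the rate-limiting enzyme of heme synthesis, had signals of 46564, 58473 and 67947 in BPL and 72604, 83430 and 67204 in BPH (log2 difference 0.38 ± 0.19, limma adjusted p = 0.29). The strains overlapped only in that BPL replicate 3 was above BPH replicate 3. Hmox1, the inducible heme oxygenase, differed by -0.05 ± 0.19 (limma adjusted p = 0.90).

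Of 15 probe sets for receptors and factors that control P450 genes, 1 was called higher, 0 were called lower by limma, and 5 had an unadjusted p under 0.05. The call was a probe set with the suffix r (100701_r_at) of Nr5a1, steroidogenic factor 1, a regulator of steroid P450 genes. It had signals of 3213, 4356 and 4653 in BPL and 9482, 12954 and 7643 in BPH, a log2 difference of 1.24 ± 0.23 (limma adjusted p = 0.023). The other 2 tested Nr5a1 probe sets differed by 0.96 ± 0.26 and 0.44 ± 0.16, without a call but also without overlap of the strains. The smaller difference (limma adjusted p = 0.17) was that of the brightest Nr5a1 probe set, 101665_at, which has no suffix. Probe sets 101666_at and 161418_r_at of this gene were near background, with overlapping strains. The call was lost without any one of BPL replicates 1 and 2 or BPH replicates 1 and 2 (limma adjusted p from 0.060 to 0.087). Ahr, the aryl hydrocarbon receptor, was near background (from 126 to 403 over the 6 arrays).

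Of 14 probe sets for companion enzymes of foreign compound metabolism, 1 was called higher and 1 lower, and 5 had an unadjusted p under 0.05. Among these 5, only that of Tpmt was lower in BPH. Ephx1, the microsomal epoxide hydrolase that acts on epoxides made by P450 enzymes, had signals of 7387, 6993 and 8598 in BPL and 13300, 11426 and 14074 in BPH. All BPH arrays lay above all BPL arrays, and the log2 difference was 0.74 ± 0.16 (limma adjusted p = 0.043). With the authors' scaling it was 0.63 and not called (limma adjusted p = 0.084), and leaving out any single array but BPL replicate 3 also ended the call (limma adjusted p from 0.098 to 0.15).

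Tpmt, which methylates thiopurine drugs, had signals of 1405, 1900 and 1426 in BPL and 668, 427 and 824 in BPH, all BPH arrays being lower. It fell by 1.10 ± 0.22 on the log2 scale (limma adjusted p = 0.029), a call lost without BPL replicate 1 or 2 or without BPH replicate 1 or 2 (limma adjusted p from 0.064 to 0.10). Tpmt had the array order of the liver markers, highest in BPL replicate 2 and in BPH replicate 3, as had 5.35% of tested probe sets. Without those 2 arrays together, an alternative chosen after the data were seen, it was not called, with fewer arrays in each strain. Over 16 alternative settings, this one included, the Tpmt difference stayed negative, from -1.34 to -0.72. The part of liver RNA in its signal was not tested. Tiparp, a target of the aryl hydrocarbon receptor named after its values were seen, differed by 1.13 ± 0.26 (limma adjusted p = 0.052).

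Of 3 tested enzymes with the P450 fold but other symbols, 0 were called by limma and 1 had an unadjusted p under 0.05. That was Cyp51, the lanosterol demethylase of cholesterol synthesis, with signals of 1136, 892 and 1832 in BPL and 2054, 2347 and 3163 in BPH and no overlap (log2 difference 0.90 ± 0.26, limma adjusted p = 0.0999). The prostacyclin and thromboxane synthases Ptgis and Tbxas1 differed by 0.10 ± 0.19 and -0.04 ± 0.19 (limma adjusted p = 0.80 and 0.91). Cyp2f2, left out by the rule, differed by -0.48 ± 0.26 (limma adjusted p = 0.33).

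**Figure D5:**
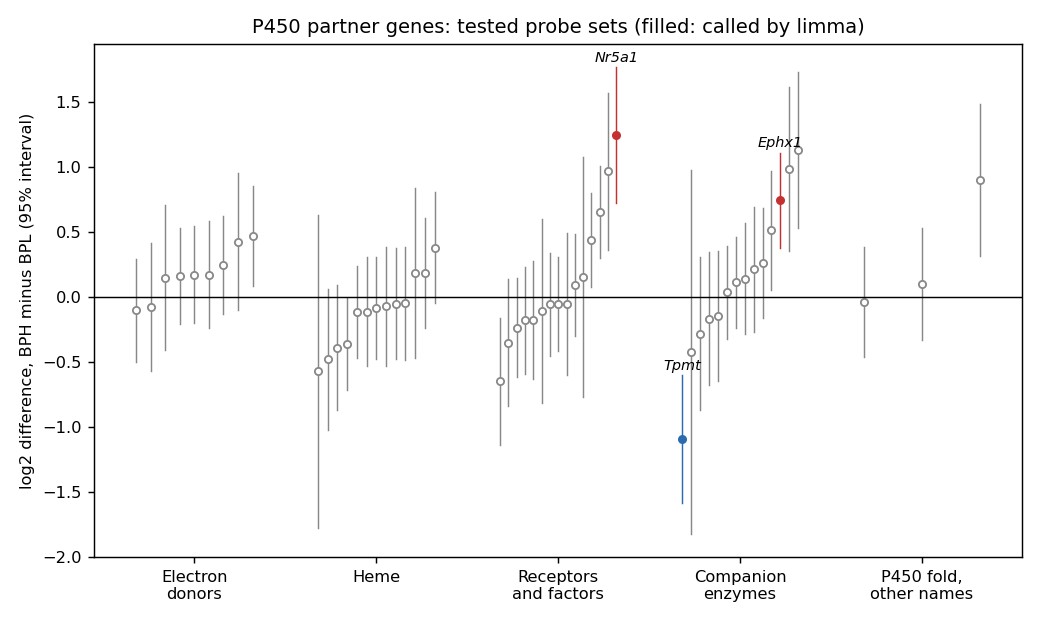
Strain differences on the log2 scale, BPH minus BPL, of 54 tested probe sets of P450 partner genes in 5 lists, with 95% intervals from the limma model over 3 arrays per strain. The filled points are the 3 calls, Nr5a1 (1.24), Ephx1 (0.74) and Tpmt (-1.10).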

How the data were processed

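Biotin-labelled adrenal RNA was hybridised to 3 BPH and 3 BPL Affymetrix arrays, per the labels' protocols. The authors deposited linear intensity values, 1 for each probe set on each array, computed with MAS5 per the submitters' processing notes. MAS5's version, settings and target are not given in these sources. Detection calls were not used. Of 12488 probe sets, 66 controls were left out. Array medians differed by 21.0% (945 to 1144), above a tolerance of 10%, so arrays were scaled to the mean median, 1040. Values were log2(signal + 203), 203 being the 20th percentile of signals, so folds of dim genes are understated. Testing left out the lowest 40% of probe sets by mean, which kept 7453. Lower signals are less precise, and 3 arrays per strain limit all precision.

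BPH was compared with BPL with limma 3.58.1 in R 4.3.3 (lmFit and eBayes, 2-sided, 4 residual and 4.50 prior degrees of freedom), with p-values adjusted by Benjamini-Hochberg over all tested probe sets and a threshold of 0.05. In all 306 were called, 237 higher and 69 lower (77.5% higher), against 66.3% of 294 with the authors' scaling and 67.2% of 271 after quantile normalization. The median of all tested probe sets was 0.08, and -0.02 with the authors' scaling. Tested on simulated data of this comparison over 7453 probe sets, limma found 59.0% of the 2-fold and 94.0% of the 4-fold changes put in. Of the simulated calls 3.8% were false. The simulation drew independent normal noise with the same spread in both strains, and spreads were shuffled among probe sets. The real arrays share variation across genes, as for the liver markers, so these rates may not hold for them. Errors of differences are standard errors.

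Members and lists were chosen with earlier results of these data known. Values were given for every called member, all bright members, the 5 on each side of the filter, and near-background members with an unadjusted p under 0.05. Of the partner genes they were given for every call and for Fdx1, Hmox1, Alas1, Ahr and Cyp51. They were also planned for Por and Fdxr, which lacked a probe set of 1 symbol. Others, such as Tiparp and the liver-like probe sets, were chosen after their values were seen. Symbols came from the platform annotation. Promoters came from RefSeq (GRCm38.p6) and were aligned with Biopython 1.88; no build is stated for the array. Any pair of arrays had at most 1 identical value. Arrays were not paired by replicate number in the main fit. Correlations of deviations from the strain mean were -0.06, -0.05 and -0.18 between same-numbered arrays and from -0.06 to 0.12 between others. With 3 arrays per strain these values cannot show whether same-numbered arrays shared a batch.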

Additional observations from a re-analysis of the deposited data

How the results depend on the processing

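The call of Cyp2e1 was kept in 16 of 17 alternative settings, with differences from 1.24 to 1.73, the exception being the loss of BPL replicates 1 and 2 together (1.24, limma adjusted p = 0.11). That setting leaves 1 BPL array, assumed to vary like the BPH arrays. In it 1 member was called higher, Cyp2c39 (1.44), so neither the loss nor the call rests on a spread measured in BPL. With the pseudocount 4 times as high (813), with a trended and robust variance and with the replicate block, 2 members were called, Cyp2e1 and Cyp2c39, and without single arrays 1 to 2 were called. No member was called lower in any setting.

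Over all probe sets, calls higher and lower in BPH were 106 and 21 with no filter, 73 and 19 without BPL replicates 1 and 2 together, and 107 and 27 without BPL replicate 2 and BPH replicate 3 together, an alternative chosen after the data were seen. Without single arrays they ran from 92 to 279 and from 20 to 93. With the replicate block, which rests on shared numbers only, 172 were higher and 67 lower. Partner probe sets called higher numbered 1 with the authors' scaling, quantile normalization, the floor, the replicate block and without BPL replicate 2 and BPH replicate 3 together, 0 with no filter and without BPL replicates 1 and 2 together, 5 with the higher pseudocount and with the trended variance, and 7 with the stricter filter (lowest 60% left out). Those called lower numbered 0 with no filter, the stricter filter, which no longer tests Tpmt, the replicate block and either loss of 2 arrays. Without single arrays 0 to 3 were called higher and 0 to 1 lower.

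Directions of uncalled genes changed as follows. Cyp4v3 was at -0.037 with the authors' scaling, -0.082 after quantile normalization, from -0.084 (without BPH replicate 1) to 0.22 (without BPL replicate 3) without single arrays and -0.22 without BPL replicates 1 and 2. In that last setting Cyp4f13 was at -0.038 and Cyp4a12b at 0.025. Cyp2c38 ran from -0.13 (without BPH replicate 3) to 0.27 (without BPH replicate 2) and was at -0.16 without BPH replicate 3 and BPL replicate 2. In those 2 settings Hmox1 was at 0.10 and 0.11, and it was at -0.21 without BPH replicate 1. The causes were not tested. Among the 3 called partner probe sets, the replicate block ended the calls of Ephx1 and Tpmt (limma adjusted p = 0.086 and 0.057). Near-background signals limit what can be said of 32 of the 43 members.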
